A study of Mus musculus with 8 samples.

Results

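The genes described here are the 7 MHC class II presentation genes H2-Aa, H2-Ab1, H2-Eb1, Cd74, Ciita, H2-DMa and H2-DMb1, picked by their symbols from the 55679 genes of the deposited RNA-seq table. The table held 8 libraries of left ventricle from male wild-type C57BL/6J mice. Mice of the 4 control libraries received saline and those of the 4 ANG II libraries received angiotensin II, the vessel-constricting peptide of the renin system, at a dose of 1500 ng/kg/min, both over 7 days from an implanted pump. Hearts were flushed with saline before the ventricle was taken, and whole ventricle was sequenced after oligo(dT) enrichment, so every cell type of the muscle and any blood cells that remained contribute to a value. Ages were not given in the sources used here, the study's methods describe more replicates per group than the 4 libraries analysed here, and no label ties a library to a named mouse, so p-values measure the spread between these libraries. Values are FPKM, in which the fragments of a gene are divided by its transcript length and by the size of the library. Levels of different genes are therefore compared per length. All 7 genes passed the low-value filter, set at 0.1 FPKM on the mean of the 8 libraries.

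MHC class II molecules are pairs of an alpha and a beta chain that show peptides from swallowed proteins to CD4+ T cells, mainly on dendritic cells, B cells and activated macrophages. The new pair is plugged by the invariant chain, encoded by Cd74, and carried to endosomes. There proteases cut the invariant chain down, and the H2-DM dimer exchanges its last fragment for a peptide. Ciita is the co-activator that switches the whole set on: it binds no DNA itself and works through RFX, CREB and NF-Y factors seated on conserved X and Y boxes of the class II promoters. Interferon gamma, acting through Jak1, Jak2 and Irf1, is a well known inducer of Ciita outside B cells and dendritic cells.

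Because Ciita is known to act through these promoter boxes, promoter letters are shown first. RefSeq entries were found for 4 of the 7 genes, namely H2-Aa, H2-Eb1, H2-DMa and H2-DMb1, each covering 250 bases before to 50 bases after a transcription start in GRCm38.p6. Both strands were searched for a Y box core, the NF-Y motif ATTGG, which reads CCAAT on the opposite strand. The X box core was taken here as AGCAAC, with GTTGCT as its form on the opposite strand, and the motifs do not overlap. The 120 bases before the start are printed 5′ to 3′ on the gene's own strand for an alpha chain gene (chr17:34287824-34287943, minus strand) and for a beta chain gene (chr17:34305747-34305866, plus strand), with the motif letters in capitals.
H2-Aa: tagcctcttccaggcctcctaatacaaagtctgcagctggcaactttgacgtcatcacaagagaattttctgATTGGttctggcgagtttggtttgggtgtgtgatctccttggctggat
H2-Eb1: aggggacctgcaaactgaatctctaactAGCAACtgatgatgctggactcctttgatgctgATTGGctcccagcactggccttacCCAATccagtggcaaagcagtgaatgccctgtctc
The H2-Aa stretch held the Y core beginning 48 bases before the start and no X core of these letters. H2-Eb1 held the X core at 92 bases and Y cores at 59 and 35 bases before the start. In H2-DMb1 a Y core began 61 bases before the RefSeq start. H2-DMa has 2 entries, of which the second held a Y core 198 bases before the start and the first neither motif. Such matches describe letters and not bound sites, since a Y core was found in 37.4% of all 32851 promoters of this length, an X core in 14.8% and both in 5.84%. Among the class II relatives with an entry, H2-Oa and H2-Ob held a Y core at 43 and 57 bases and an X core at 77 and 88 bases before their starts, H2-Eb2 held a Y core at 100 bases and X cores at 133 and 10 bases, and H2-DMb2 held a Y core at 90 bases and no X core.

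Read depth was even, at 14455648 to 16564827 fragments per library as read from the steps of the deposited values. Mitochondrially encoded genes took 28.9 to 30.2% of summed FPKM in control and 22.1 to 24.6% in ANG II libraries. They were left out of the total only together with the genes of highest mean. Their separate part in the values of other genes was therefore not tested. The median log2 fold change was 0.15 over the 19364 genes tested as deposited and 0.0025 over the 19325 tested after median-of-ratios scaling. With a common total without mitochondrial and top 10 genes it was 0.053 over 19336 genes. In that fit the class II genes ranged from 0.34 for H2-DMa to 0.70 for H2-DMb1, against 0.47 and 0.83 as deposited. Fold changes are ANG II minus control on the log2(FPKM + 1) scale from limma, a linear model with moderated variances. A gene was called where its Benjamini-Hochberg adjusted p-value, taken over the whole table, was under 0.05 and its log2 fold change exceeded 0.5 in size. By that rule 15.4% of the genes tested were called, 14% as higher and 1.41% as lower in ANG II, and 33.3% passed the adjusted p-value by itself.

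Of the 7 class II genes, 1 was called, H2-DMb1, which was higher in ANG II ventricles, against the 14% of all genes called higher. It was also the 1 gene of the 7 to pass the adjusted p-value by itself, against 33.3% of all genes. All 7 point estimates lay above 0, between 0.47 and 0.83, with a median of 0.69, compared with 0.15 over all genes tested. The groups overlapped in all 7 genes, whereas they did not overlap in 33.7% of all genes tested. Two-sided exact permutation p-values over the 70 allocations of the 8 libraries ranged from 0.0571 for H2-DMb1 to 0.2 for H2-DMa, and the smallest this design allows is 0.0286.

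The chains of the classical class II pair I-A were abundant. H2-Aa, the I-A alpha chain (ENSMUSG00000036594; GRCm38 chr17:34282744-34287823, minus strand), was measured at 100, 36.0, 74.5 and 38.6 FPKM in control libraries 1 to 4 and at 106, 58.2, 123 and 113 FPKM in ANG II libraries 1 to 4. Controls 2 and 4 were the lowest of all 8 libraries, ANG II 2 lay below controls 1 and 3, and the other ANG II libraries lay above every control. Group means were 62.4 ± 30.9 FPKM for control and 100 ± 28.7 FPKM for ANG II (SD, n = 4 per group). The log2 fold change was 0.75 with a 95% interval from -0.01 to 1.51 (limma, adjusted p = 0.122).

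H2-Ab1, the I-A beta chain that completes the pair (ENSMUSG00000073421; chr17:34257689-34269419, plus strand), was measured at 150, 58.1, 111 and 62.7 FPKM in controls 1 to 4 and at 167, 83.2, 184 and 186 FPKM in ANG II 1 to 4. The same order returned: controls 2 and 4 at the bottom, ANG II 2 between the low and the high controls, and ANG II 1, 3 and 4 above all controls. Its log2 fold change was 0.74 with an interval from -0.02 to 1.49 (limma, adjusted p = 0.124).

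H2-Eb1, the beta chain of the second pair I-E (ENSMUSG00000060586; chr17:34305867-34316674, plus strand), gave 129, 55.9, 94.7 and 50.8 FPKM in controls 1 to 4 and 138, 74.0, 146 and 163 FPKM in ANG II 1 to 4. Again ANG II 2 fell below controls 1 and 3. The log2 fold change was 0.69 with an interval from -0.02 to 1.41 (limma, adjusted p = 0.126). C57BL/6 mice are known to lack the I-E alpha chain because their copy of its gene is defective. H2-Ea-ps, which stands for that copy in the table, was listed at 0 in all 8 libraries, which allows up to 3 fragments per library by counting error alone. Another beta chain gene, H2-Eb2, reached at most 0.0972 FPKM and was not tested.

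Cd74, the invariant chain (ENSMUSG00000024610; chr18:60803848-60812652, plus strand), had the highest FPKM of the set in every library, at 200, 91.8, 165 and 90.0 FPKM in controls 1 to 4 and 219, 121, 239 and 235 FPKM in ANG II 1 to 4. Controls 2 and 4 lay nearly level at the bottom, and ANG II 2 stood well below the other 3 ANG II libraries. Group means were 137 ± 54.7 FPKM for control and 203 ± 55.7 FPKM for ANG II (SD, n = 4 per group). The log2 fold change was 0.61 with an interval from -0.05 to 1.27 (limma, adjusted p = 0.147).

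The co-activator gene Ciita (ENSMUSG00000022504; chr16:10480059-10528418, plus strand) was read at much lower levels, 2.70, 1.10, 1.91 and 1.01 FPKM in controls 1 to 4 and 4.49, 1.75, 3.57 and 3.15 FPKM in ANG II 1 to 4. These values rest on 54 to 237 fragments per library. ANG II 1, 3 and 4 exceeded every control and ANG II 2 lay below controls 1 and 3. The log2 fold change was 0.66 with an interval from 0.11 to 1.22, which excluded 0 before but not after adjustment (limma, unadjusted p = 0.024, adjusted p = 0.0662).

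The peptide exchanger H2-DM was measured through both chains. H2-DMa, the alpha chain (ENSMUSG00000037649; chr17:34119541-34139101, plus strand), gave 9.13, 4.88, 7.40 and 3.97 FPKM in controls 1 to 4 and 10.2, 4.27, 13.7 and 9.50 FPKM in ANG II 1 to 4. ANG II 2 lay below control 2 here and above control 4 alone. The log2 fold change was 0.47 with an interval from -0.24 to 1.18 (limma, adjusted p = 0.289). As annotated, 10.4% of its exon bases lie under Brd2 on the opposite strand, and use of strand in counting was not given in the sources used here.

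H2-DMb1, the main beta chain (ENSMUSG00000079547; chr17:34153072-34160230, plus strand), gave 9.75, 6.04, 6.15 and 4.04 FPKM in controls 1 to 4 and 13.0, 7.83, 14.8 and 12.8 FPKM in ANG II 1 to 4. ANG II 2 alone lay inside the control range, below control 1. Group means were 6.50 ± 2.37 FPKM for control and 12.1 ± 2.98 FPKM for ANG II (SD, n = 4 per group), and the log2 fold change was 0.83 with an interval from 0.30 to 1.35 (limma, adjusted p = 0.0223). The value is uncertain as to its gene, because 22.7% of the 50-base words in its transcripts are found in the neighbouring copy H2-DMb2 too. The call was lost when control 3, control 4, ANG II 1, ANG II 3 or ANG II 4 was left out, and under median-of-ratios scaling, quantile normalization and the common total without mitochondrial and top 10 genes, with adjusted p-values over all alternatives from 0.00636 to 0.098.

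**Figure D1:**
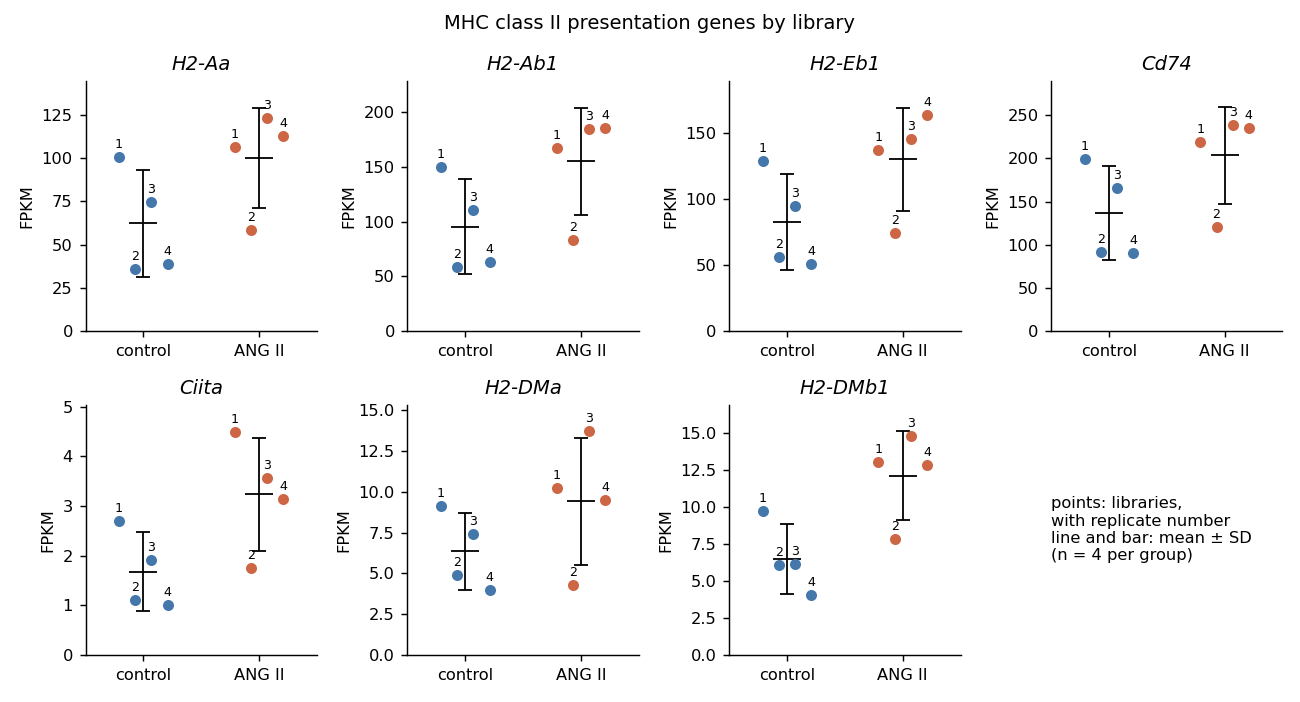
FPKM of the 7 MHC class II genes in each library, 1 panel per gene with its own axis from 0. Points are libraries numbered by replicate, and the line with its bar is the mean ± SD of 4 libraries. In every panel controls 2 and 4 lie below controls 1 and 3, and ANG II 2 is the lowest of its group.

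The spread within groups was large for genes of this abundance. In control ventricles the highest value exceeded the lowest by 2.22 times for Cd74 and by 2.79 times for H2-Aa, the extremes of the set, and control 1 was the highest control for every member. In ANG II ventricles the same ratio ran from 1.89 for H2-DMb1 to 3.21 for H2-DMa, and ANG II 2 was the lowest for every member. The SD of log2(FPKM + 1) within groups placed H2-Aa at percentile 98.1, H2-Ab1 at 98.1, H2-Eb1 at 97.7, H2-DMa at 97.5, Cd74 at 97.1, Ciita at 94.6 and H2-DMb1 at 94.4 of all genes tested. Among the 6742 genes that averaged 10 FPKM or more, H2-Aa, H2-Ab1, H2-Eb1 and Cd74 lay at percentiles 99.4, 99.4, 99.3 and 99.0. Fragment counts of 691 to 4000 per library stood behind these 4 genes, so counting error was small beside their spread.

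**Figure D2:**
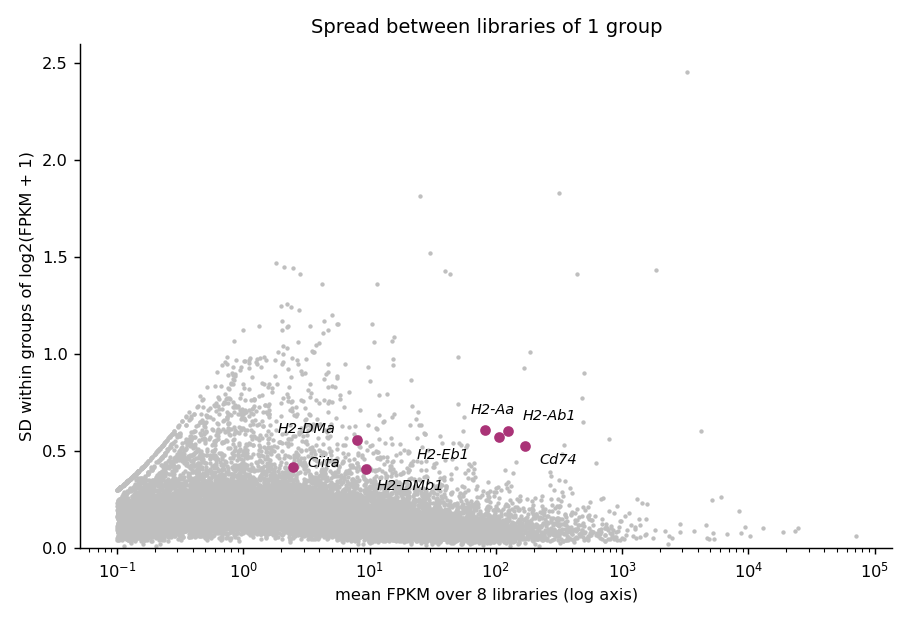
SD of log2(FPKM + 1) within groups against mean FPKM on a log axis, 1 grey point per gene tested and labelled points for the MHC class II genes. H2-Aa, H2-Ab1, H2-Eb1 and Cd74 lie above at least 99.0% of genes that averaged 10 FPKM or more.

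The 7 genes varied together from library to library. Controls 1 and 3 both exceeded controls 2 and 4, and ANG II 2 was the lowest ANG II library, in 7 of 7 members and in 760 of the 12947 genes that averaged 1 FPKM or more (5.87%). That order was read from these 7 genes, so 7 of 7 is no test of it. ANG II 2 was the lowest of its group in 3790 of those 12947 genes, whatever the order of the controls. The ratio of H2-Ab1 to H2-Aa stayed between 1.43 and 1.64 over the 8 libraries, although the highest level of each gene was more than 3 times its lowest. H2-Eb1 lay at 1.19 to 1.55 times H2-Aa, and Cd74 at 1.94 to 2.55 times. Ratios of the less abundant genes were looser: Ciita per H2-Aa spanned 1.65 times, H2-DMa 1.85 times and H2-DMb1 2.03 times from the lowest to the highest library. The ratio of Ciita to H2-Aa was 0.0256 to 0.0306 in control and 0.0279 to 0.0423 in ANG II libraries, its top value in ANG II 1.

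Likeness of profile was measured as the root mean square difference of log2(FPKM + 1) over the 8 libraries after centring each gene. For each of H2-Aa, H2-Ab1, H2-Eb1 and Cd74 the 3 nearest genes in the table were the other 3, at differences of 0.0673 to 0.116. Ciita ranked 5 to 8, H2-DMa 6 to 9 and H2-DMb1 11 to 16 among their neighbours. Outside the 7 genes the nearest to H2-Aa and to H2-Ab1 were Gm23711, Gimap3 and H2-K1. Those nearest to H2-Eb1 were Gimap3, Gm23711 and Arhgap4, and those nearest to Cd74 were Arhgap4, H2-K1 and Gimap3. H2-K1, a class I heavy chain gene that serves CD8+ T cells, gave 383, 158, 288 and 237 FPKM in controls 1 to 4 and 484, 249, 433 and 423 FPKM in ANG II 1 to 4. Gimap3, a lymphocyte GTPase gene, had a mean of 1.75 FPKM, with 0.43 and 0.32 FPKM in controls 2 and 4. Gm23711 averaged 1.56 FPKM and was at 0 in the same controls, so both likenesses rest partly on values near the floor. Arhgap4 averaged 2.21 FPKM and was called higher at 0.62 (limma, adjusted p = 0.0433). The libraries are the same for every gene compared, so these ranks describe 8 libraries and carry no test.

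**Figure D3:**
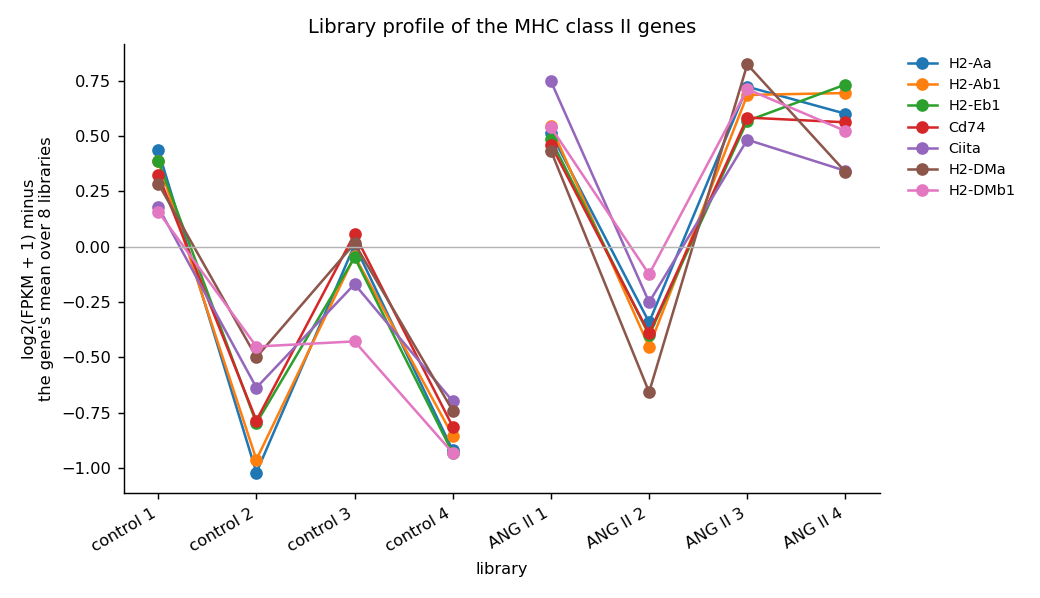
log2(FPKM + 1) of each MHC class II gene minus its mean over the 8 libraries, by library, with 1 line per gene and group. The lines dip together at control 2, control 4 and ANG II 2, where every gene lies below its own mean.

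The count of class II calls turned on these libraries. Without ANG II 2, all 7 genes were called higher, with log2 fold changes from 0.77 for H2-DMa to 1.01 for H2-Ab1 (limma, adjusted p from 0.0083 to 0.0483). In that fit 14.3% of all genes were called higher. Without control 1, 5 were called, all but Cd74 and H2-DMa, against 14.6% of all genes called higher. Without control 2 the count was 1, and with control 3, control 4, ANG II 1, ANG II 3 or ANG II 4 left out it was 0. In these fits 12.9 to 14.3% of all genes were called higher. The log2 fold change of each gene remained above 0 in 18 of 18 alternatives fitted, at its lowest 0.19, for H2-DMa under quantile normalization. For the others the lowest was 0.37 (Ciita), 0.38 (Cd74), 0.47 (H2-Eb1), 0.51 (H2-Ab1), 0.52 (H2-Aa) and 0.55 (H2-DMb1). Each lowest value came from median-of-ratios scaling or quantile normalization. ANG II 2 held 15946469 fragments, inside the range of the other libraries.

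Markers of cells that can carry class II were read next to the class II genes. A bulk library cannot tell fewer cells of a type from less RNA per cell. Of 12 macrophage markers, 12 rose, their groups did not overlap, and the median of their log2 fold changes was 1.36. Their summed level was 301 to 379 FPKM in control and 683 to 950 FPKM in ANG II libraries. All 4 markers of monocytes or recruited macrophages rose (1.80 to 7.48 against 14.7 to 28.8 FPKM summed), and of 4 resident macrophage markers 0 were called (26.9 to 31.4 against 30.5 to 41.0 FPKM; 2 had an unadjusted p under 0.05 in limma). Of these 2, Cd163 at 0.43 had an adjusted p-value under 0.05 with a fold below the threshold (limma, adjusted p = 0.0154), while Timd4, at -0.45, did not (limma, adjusted p = 0.113). The macrophage sums in controls 1 to 4 were 379, 301, 316 and 304 FPKM and in ANG II 1 to 4 were 841, 683, 950 and 700 FPKM, so that controls 1 and 3 lay above controls 2 and 4 and ANG II 2 was the lowest of its group, as in the class II genes. The class II sums were 600, 254, 461 and 251 FPKM in controls 1 to 4 and 658, 350, 724 and 723 FPKM in ANG II 1 to 4. Only this order was shared, and not the size of the gaps.

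Of 9 dendritic cell markers, 4 rose, namely the receptor genes Flt3, Cd209a and Ccr7 and the integrin gene Itgax. The other 5 were not called: Zbtb46 at 0.07, Siglech at 0.08, Xcr1 at 0.21, Batf3 at 0.27 and Clec9a at 0.35. The list summed to 14.5 to 23.1 FPKM in control and 22.6 to 30.7 FPKM in ANG II libraries. Summed levels in controls 1 to 4 were 23.1, 17.6, 21.04 and 14.5 FPKM and in ANG II 1 to 4 were 30.4, 22.6, 29.4 and 30.7 FPKM, so that controls 2 and 4 and ANG II 2 were low in their groups here as well. Batf3, needed for cross-presenting dendritic cells, gave 3.00, 0.65, 1.14 and 0.27 FPKM in controls and 1.61, 0.85, 1.25 and 2.46 FPKM in ANG II libraries.

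Of 5 T cell markers, 1 rose (Trbc2), and their sums were 4.995, 0.85, 2.32 and 1.17 FPKM in controls 1 to 4 and 5.51, 3.29, 5.93 and 8.29 FPKM in ANG II 1 to 4. The T cell sums put controls 1 and 3 over 2 and 4 and ANG II 2 last in its group, an order that the summed markers of macrophages, dendritic cells, all leukocytes and endothelium shared. Sums of recruited monocyte markers (ANG II 4 lowest in its group), B cell markers (control 3 below control 2) and resident macrophage markers (control 3 lowest in its group) did not follow it. Of 6 B cell markers, 1 rose (Cd22), and their sums were 1.01 to 2.35 FPKM in control and 2.29 to 3.88 FPKM in ANG II libraries, with Cd22 at 0 in control 3. No marker of these lists was at 0 in all 8 libraries. The lists of leukocytes, fibroblasts, endothelium, cardiomyocytes and fat or mesothelium had 3 of 3, 4 of 4, 1 of 4, 0 of 6 and 0 of 4 markers called higher, and 2 cardiomyocyte markers fell, Myh6 and Tnni3. The part of any of these cell types in the class II values was not tested.

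**Figure D4:**
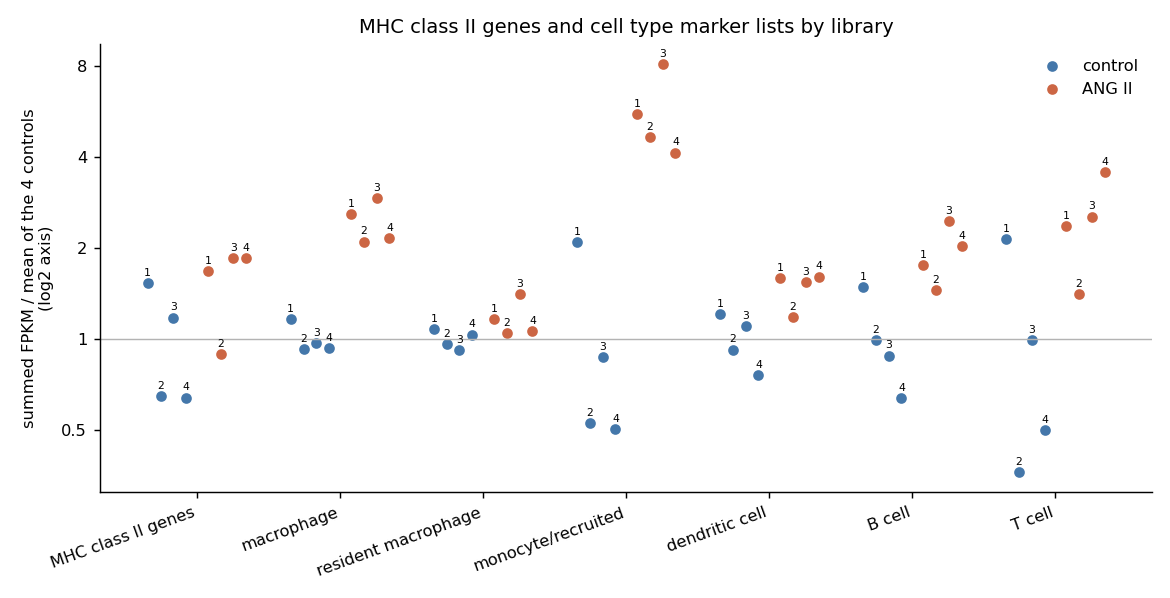
Summed FPKM of the MHC class II genes and of cell type marker lists in each library, divided by the mean of the 4 controls, on a log2 axis. Points are libraries numbered by replicate. Macrophage and recruited monocyte sums do not overlap between groups, while the class II sum does, at 251 to 600 FPKM in control and 350 to 724 FPKM in ANG II libraries.

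On a scale relative to macrophage markers the class II estimates lay below 0. After subtracting each library's mean log2(FPKM + 1) over the 12 macrophage markers, 4 of 7 genes were called lower in ANG II: H2-DMa at -0.80, Cd74 at -0.67, Ciita at -0.61 and H2-Eb1 at -0.58 (limma, adjusted p 0.00417 to 0.0321). Of all genes tested, 93.1% were called on this scale, 92.4% as lower and 0.702% as higher, so the count says nothing particular about class II. H2-Ab1 at -0.54, H2-Aa at -0.52 and H2-DMb1 at -0.45 were not called. The count was 1 without ANG II 2 and 7 without control 4 or without ANG II 4.

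The remaining class II genes were faint. H2-DMb2, the second DM beta chain, was called higher at 0.67, with 0.143 to 0.432 FPKM in control and 0.697 to 1.24 FPKM in ANG II libraries, though 24.8% of its 50-base words are shared with H2-DMb1. H2-Ob, the beta chain of H2-DO, which restrains H2-DM, was called higher at 0.56 (0.286 to 1.47 against 1.10 to 1.82 FPKM) and lost its call under 11 of 18 alternatives at the same thresholds, median-of-ratios scaling, quantile normalization and the removal of any library but control 1 or ANG II 2 among them. H2-Oa, its alpha chain, reached at most 0.359 FPKM and was not called at 0.14. H2-Ea has no row under that symbol.

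Of 7 endosomal enzymes that ready the groove, 5 rose and 0 fell. Ctss, the protease that makes the last cuts in the invariant chain, gave 24.5, 15.4, 22.2 and 18.3 FPKM in controls 1 to 4 and 89.7, 62.4, 98.7 and 81.7 FPKM in ANG II 1 to 4, a log2 fold change of 2.00 with an interval from 1.63 to 2.36 (limma, adjusted p = 2.77e-05). Every ANG II library stood far above every control. Lgmn, the asparagine endopeptidase that begins the cutting, rose by 1.12, and the lysosomal proteases Ctsb, Ctsd and Ctsl rose by 0.82, 0.77 and 0.69. The Ctsl call was lost under median-of-ratios scaling. Sppl2a, which clears the membrane stub of the invariant chain, was not called at 0.13 (26.6 to 29.98 against 29.8 to 31.9 FPKM). Ifi30, a thiol reductase for antigens, was listed at 0 in 2 control and 2 ANG II libraries and up to 4.10 FPKM elsewhere.

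Of 7 genes of the promoter complex that Ciita joins, 2 were called higher, Rfx5 at 0.52, the DNA-binding RFX subunit, and Nfya at 0.59, an NF-Y subunit, and neither was called after median-of-ratios scaling. Rfx5 also lost its call without control 3, control 4, ANG II 1, ANG II 3 or ANG II 4, and Nfya without control 2. The other RFX subunits Rfxap and Rfxank, the NF-Y subunits Nfyb and Nfyc, and Creb1 had log2 fold changes between 0.0047 and 0.37 and were not called. Rfxank did pass the adjusted p-value alone (limma, adjusted p = 0.0279), with 3.18 to 4.91 FPKM in control and 5.47 to 5.55 FPKM in ANG II libraries.

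Along the route from interferon gamma to Ciita, 1 of 7 genes tested was called. Ifngr1, the ligand-binding receptor chain, rose by 0.67, with 53.3 to 62.1 FPKM in control and 87.7 to 107 FPKM in ANG II libraries, a call that median-of-ratios and quantile scaling removed. Irf1, which binds the Ciita promoter, gave 23.9, 12.8, 14.9 and 14.9 FPKM in controls and 26.8, 17.4, 22.9 and 21.3 FPKM in ANG II libraries, at 0.41 with an interval from 0.01 to 0.81 (limma, adjusted p = 0.111). Control 2 and ANG II 2 were the lowest of their groups for Irf1, as ANG II 2 was for the class II genes. Jak2, a receptor kinase, met the adjusted p-value threshold without reaching the fold threshold at 0.38, as did the second receptor chain Ifngr2 at -0.23, while Jak1 at -0.12 and the feedback inhibitor Socs1 at 0.18 passed neither. Ifng itself was listed at 0 in 5 of 8 libraries, at most 0.334 FPKM, and was too low to be tested.

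Of the genes that act on finished class II, March1, the ubiquitin ligase that sends surface class II and Cd86 for degradation, rose by 0.86, with 0.945 to 1.28 FPKM in control and 2.18 to 3.36 FPKM in ANG II libraries (limma, adjusted p = 0.000565). It kept its call in 18 of 18 alternatives at the same thresholds and lost it at a log2 fold change above 1. Its relative March8 was not called at 0.11, nor were Cd83 at 0.39, which opposes March1, and Il10 at 0.31, which induces it.

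Of 7 genes of costimulation and the T cell side, 6 rose, of which Cd40, Cd80, Cd86 and Icosl are known from antigen-presenting cells and Cd4 and Lag3 from T cells. Cd86, a costimulatory ligand, gave 3.99, 3.14, 3.69 and 2.83 FPKM in controls 1 to 4 and 9.68, 6.28, 10.3 and 9.45 FPKM in ANG II 1 to 4, a log2 fold change of 1.16 (limma, adjusted p = 0.000343). ANG II 2 was again the lowest of its group but remained above every control. Cd4 and Lag3, both receptors for class II, rose by 0.71 and 0.61, Cd40 by 0.71, Cd80 by 0.66 and Icosl by 0.52, and Cd28, the receptor for Cd80 and Cd86, was not called at -0.16. Of these 6 calls, 2 were lost under median-of-ratios scaling (Cd80, Icosl) and 5 under quantile normalization (Cd4, Cd40, Cd80, Icosl, Lag3). Icosl was also not called without control 2, control 3, ANG II 1, ANG II 3 or ANG II 4, nor Lag3 without control 3, control 4, ANG II 1 or ANG II 4.

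Cd74 also serves as a receptor for the cytokine Mif, with Cd44 as its signalling partner. Mif rose by 0.86, with 56.2 to 63.5 FPKM in control libraries and 102 to 121 FPKM in ANG II libraries, and Cd44 rose by 1.09, with 4.47 to 6.62 FPKM in control and 11.9 to 15.3 FPKM in ANG II libraries. Cxcr4, a co-receptor, rose by 1.16. Cxcr2, a further co-receptor, was not called at 0.41 but passed the adjusted p-value (limma, adjusted p = 0.0153), with 0 to 0.0917 FPKM in control and 0.251 to 0.691 FPKM in ANG II libraries, and it was called with a pseudocount of 0.1 and with limma-voom. The Mif relative Ddt at -0.15 was not called. Over all these lists, 20 of 40 tested pathway genes were called higher and 0 lower, against 14% and 1.41% of all genes tested. Of the 20, 13 kept their calls under median-of-ratios scaling, where 8.65% of all genes were called higher. The lists were chosen with earlier results of these data known, so these counts are no test of the pathway.

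**Figure D5:**
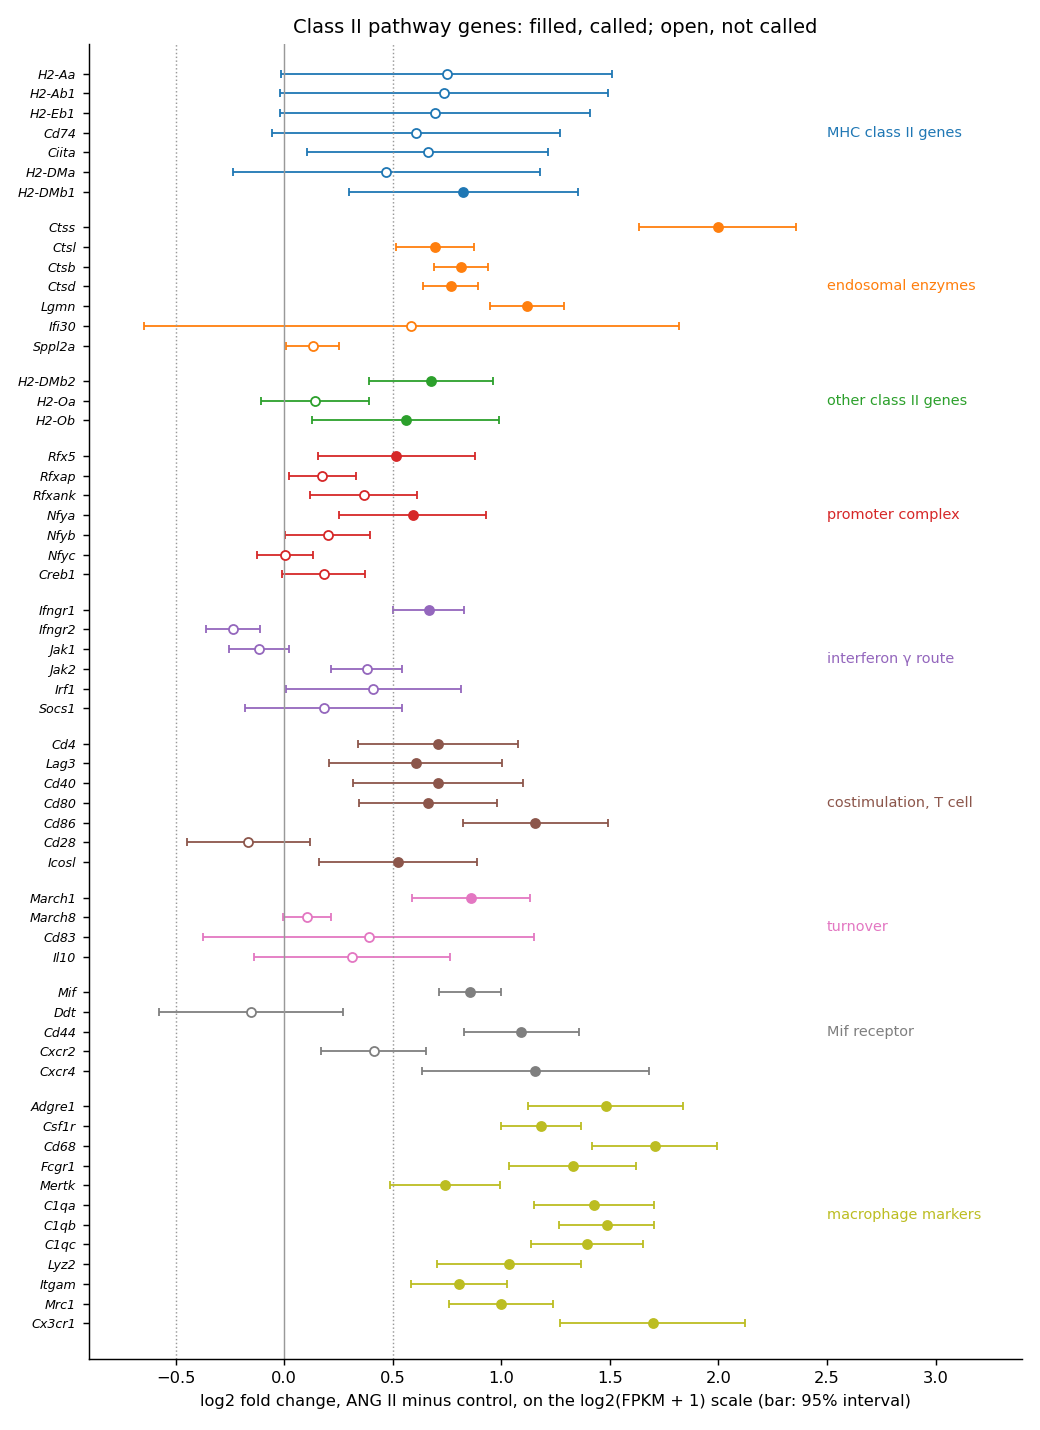
Log2 fold change, ANG II minus control, with its 95% interval for the MHC class II genes, the other genes of the pathway by role and the macrophage markers. Filled points were called and dotted lines mark the fold threshold of 0.5 in either direction. Intervals of the class II genes are wide, and 5 of the 7 reach below 0.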

How the data were processed

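Left ventricle libraries, 4 control and 4 ANG II, were compared, grouped and numbered by their titles. The authors deposited 1 table of FPKM values, 1 column per library, and no label says whether a library holds 1 animal or several. Per the labels, the submitters' processing notes name HISAT, Bowtie2 and RSEM. Their roles and versions, the genome build, annotation and use of strand were not given in the sources used here. Of the table's 55679 genes, 27083 were at 0 in all libraries, 278 were unnamed, and 27 names that had become dates, March1 among them, were restored by gene ID. Positions came from GENCODE M21 (GRCm38), in which 55141 IDs were found.

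Multiplied by mean transcript length, the low FPKM values of a library were whole multiples of a single step, the value of 1 fragment. Of these, 99.1 to 99.2% were whole within 0.05 fragments for genes with 1 transcript and 97.1 to 97.7% for others. Floors and counts from these steps cover counting error only.

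Groups were compared on log2(FPKM + 1) by limma 3.58.1 (R 4.3.3; lmFit and trended eBayes), without a replicate block, after the study's choice of tool and thresholds, with base 2 assumed. The pseudocount makes fold changes of low genes smaller. Exact permutation tests compared mean FPKM and used scipy 1.17.1. The main fit was tested on simulated fragments with 200 changed genes. It recovered 0 of the 200 at 1.5-fold, 11 at 2-fold and 172 at 3-fold, so a missing call at small folds says little. The alternatives were other pseudocounts, filters, scalings, variance models, thresholds, a replicate block and leaving out each library. Limma-voom on fragments recovered from the steps was added after seeing the data.

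The members and lists were chosen with earlier results of these data known. Named were all 7 members, all genes of the pathway lists and, for 4 members, the 3 nearest profiles outside the set among genes averaging 1 FPKM or more. A gene of the interferon gamma list is counted in that list's totals but not reported here.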

Additional observations from a re-analysis of the deposited data

Results flagged for a closer look

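Of 98 groups of 4 libraries in which class II and pathway genes were examined, 8 held a library far from the other 3, and chance alone gives about 1 in 20. In ANG II 2, Cd74 was low at 121 FPKM, as were H2-DMb2 at 0.697 FPKM and Icosl at 4.52 FPKM. Among the remaining ANG II libraries, Socs1 was high at 1.27 FPKM in ANG II 1, Cd83 was high at 12.2 FPKM and Ifng at 0.334 FPKM in ANG II 4 and ANG II 3 respectively, and Ddt was low at 0.432 FPKM in ANG II 3. In control 2, Cd80 was low at 1.13 FPKM.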

How the results depend on the processing

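Of 7 class II genes, 1 was called. The count was 0 with an absolute log2 fold change above 1, 0 under median-of-ratios scaling, 0 after quantile normalization, 0 with a common total after removing mitochondrial and top 10 genes, 2 when tested genes had to average 1 FPKM, 2 with limma-voom on recovered fragments, and 0 to 7 when single libraries were left out. The shares of all genes called were 15.4% in the main fit and 4.11% above a log2 fold change of 1. They were 12.8%, 12.4% and 13.0% under those scalings in that order. The filter at 1 FPKM gave 20.7% and limma-voom 20.9%. With the replicate block 5 were called and 2968 of all genes. The titles share only numbers, since same-numbered libraries deviated together at r of -0.0433 to 0.0921, and not every library correlated best with its own number. Relative to macrophage markers the count was 4, 0 above a log2 fold change of 1, and 1 to 7 when single libraries were left out. Of pathway genes, 20 were called, 5 above a log2 fold change of 1, 11 after quantile normalization and 13 with median-of-ratios scaling. Of all genes, 2981 were called (2708 higher, 273 lower), 795 above a log2 fold change of 1 and 6447 by adjusted p-value alone. The split was 1671 higher and 804 lower with median-of-ratios scaling, 1416 and 983 after quantile normalization, and 1976 and 536 without mitochondrial and top 10 genes. As deposited, the log2 fold change of each class II gene was above 0 in 18 of 18 alternatives, and relative to macrophage markers below 0 in 18 of 18. The subtraction moves every gene of a library alike, so the second sign only says that macrophage markers rose more. The median of all genes on that scale was -1.13. The cause of the lost or gained calls was not tested. Ciita, H2-DMa and H2-DMb1 rest on the fewest fragments of the 7 genes, at 54 to 237 per library.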
